A study of Mus musculus with 23 samples.

Results

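Fat of mice homozygous for the hypomorphic H allele of BubR1 (labelled HH, BubR1H/H) was compared with fat of wild-type mice (labelled WT) by RNA sequencing of polyadenylated transcripts. The comparison takes in every fat library of these genotypes, 4 of HH and 4 of WT, which are 8 of the 23 libraries of the series. All animals were 8 to 10 months old and of a mixed 129Sve/C57BL/6 background, and the fat depot is labelled IAT, an abbreviation the labels do not spell out. The other libraries came from gastrocnemius muscle of the same genotypes and from fat of mice with another genotype, HL1002P (BubR1H/L1002P), which carry 1 H allele and 1 L1002P allele. Those 4 HL1002P fat libraries were used only for the comparison that closes the report. The labels call both mutants progeroid MVA mutants (mosaic variegated aneuploidy is the human syndrome known from BUB1B mutations), and give neither the sex of an animal nor its litter or batch. Nothing in them ties a replicate to a separate animal beyond its being a separate sample, so the p-values measure the spread between these samples.

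BubR1, encoded by Bub1b, is a kinase-like protein of the spindle assembly checkpoint, which holds a dividing cell in mitosis until every chromosome is attached to the spindle. Mice with little BubR1 missegregate chromosomes and age early, and loss of fat is among their known features, together with cells that express the CDK inhibitor p16, a product of Cdkn2a, and leave the cell cycle. White fat consists of fat cells that store triglyceride and secrete hormones such as leptin, held in a collagen-rich matrix with vessels, macrophages and progenitor cells, and some depots enclose lymph nodes.

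The 8 libraries held 22.6 to 58.8 M counts over genes, with 17115 to 18338 genes detected in each. Several of them stood apart in ways that the genotype labels do not describe. Xist, the RNA of the inactive X chromosome of females, was at 839 and 763 CPM in WT replicates 3 and 4 and at 707 CPM in HH replicate 4, and under 1 CPM in the other 5, which instead had Y-linked transcripts summing to 185 to 202 CPM. Skeletal muscle markers summed to 17985 CPM in WT replicate 3 and 16618 CPM in HH replicate 1, against 46.3 to 1795 CPM in the other 6 libraries. Markers of mammary and other epithelium summed to 2625 and 2598 CPM in WT replicates 3 and 4 and to 1181 and 745 CPM in HH replicates 2 and 4, against 10.4 to 38.7 CPM in the others. The defining fat cell genes Adipoq, Plin1 and Fabp4 were abundant in all 8 libraries, Fabp4 at 2909 to 17054 CPM. CPM here are counts per M on library sizes scaled by edgeR's trimmed mean of M values, values in a sentence follow replicate order 1 to 4, and ± after a mean CPM is the SD of 4 libraries.

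Of 15834 genes tested, 2661 (16.8%) changed between HH and WT fat at an edgeR adjusted p under 0.05, of which 1654 (10.4% of those tested) were higher in HH and 1007 (6.36%) lower. The change was at least 2-fold for 1039 of the higher and 549 of the lower genes. For 2502 genes (15.8%) every HH library lay above every WT library, and for 1632 (10.3%) every HH library lay below. The median log2 fold change of all tested genes was -0.02. Lymphocyte, MHC class II, DNA replication, spindle checkpoint and mitotic genes were the lists with the most members higher in HH, and collagens were the list with the most members lower. The count of changed genes rested on a few libraries: it was 365 without HH replicate 2 and 427 without HH replicate 3, and 1030 to 1129 without WT replicate 1, 2 or 4. It was 2790, 2733 and 2019 without WT replicate 3, HH replicate 1 or HH replicate 4. In all, 309 genes passed in each of the 8 fits that left out 1 library, 175 higher and 134 lower in HH. A log2 fold change given in full is followed by its SE after ±, its edgeR adjusted p and, for a changed gene, the number of these 8 fits in which it passed. For a changed gene given by its log2 fold change alone, that number follows as a count of 8. Of the 156 changed genes reported here under the naming rules given below, none reversed its direction in such a fit and 35 passed in all 8. Each of the other 121 was lost without HH replicate 2, HH replicate 3 or both. Genes named only for a promoter word are not in this count.

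Bub1b itself did not pass the test. Its level was 6.87, 11.1, 9.55 and 10.6 CPM in WT and 5.72, 11.9, 14.2 and 9.01 CPM in HH (log2 fold change 0.10 ± 0.30, adjusted p = 0.83). The groups overlapped, with both the lowest and the highest value in HH. Counts summed over the gene at chr2:118598202-118641592 do not distinguish the H allele from the wild-type allele, so this level does not check the genotype labels. Of the 291 tested genes within 20 Mb of Bub1b, 58 (19.9%) changed, against 16.8% of all genes.

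The spindle checkpoint and chromosome segregation list contains Bub1b and its partners. It had 12 of 19 tested members higher in HH and 1 lower (68.4% called, against 16.8% of all genes). Its median log2 fold change was 1.21. The member that fell was Pttg1, which encodes securin, the inhibitor that holds separase inactive until anaphase. Pttg1 stood at 19.7, 25.3, 22.3 and 35.5 CPM in WT and 5.4, 9.33, 9.21 and 6.56 CPM in HH (log2 fold change -1.75 ± 0.26, adjusted p = 0.0166, 8 of 8 fits). Every HH library was below every WT library for this gene, although 18 of the 19 members had positive fold changes. Its counterpart Espl1, which encodes separase, moved the other way, at 5.97, 6.98, 5.28 and 5.62 CPM in WT and 8.96, 21, 19 and 14.8 CPM in HH (log2 fold change 1.42 ± 0.27, adjusted p = 0.0193, 6 of 8 fits). The chromosomal passenger scaffold Incenp was at 13.9, 18.9, 12.4 and 12.4 CPM in WT and 22, 38.2, 42.2 and 27.6 CPM in HH (log2 fold change 1.18 ± 0.24, adjusted p = 0.0212, 4 of 8 fits). The anaphase activator Cdc20 was at 5.84, 8.35, 7.09 and 6.83 CPM in WT and 9.3, 21, 23.3 and 19.4 CPM in HH (log2 fold change 1.38 ± 0.29, adjusted p = 0.0215, 4 of 8 fits). In these genes HH replicate 1 lay closest to WT, just above the highest WT library, and HH replicates 2, 3 and 4 lay further up. The same library fell within the WT range for the checkpoint kinase Bub1, at 1.93, 3.24, 1.84 and 1.74 CPM in WT and 2.85, 6.95, 6.76 and 7.17 CPM in HH (log2 fold change 1.44 ± 0.37, adjusted p = 0.0361, 2 of 8 fits). It fell within that range for the kinetochore motor Cenpe as well, at 4.87, 7.04, 5.15 and 3.66 CPM in WT and 6.13, 18.8, 15.2 and 17.3 CPM in HH (log2 fold change 1.48 ± 0.37, adjusted p = 0.034, 1 of 8 fits). The checkpoint protein gene Mad2l1 rose less, at 8.82, 12.7, 10.2 and 9.86 CPM in WT and 12.7, 17.8, 18.2 and 21.1 CPM in HH (log2 fold change 0.75 ± 0.20, adjusted p = 0.0386, 1 of 8 fits). No member of the list passed as higher without HH replicate 2 or without HH replicate 3, whereas Pttg1 passed as lower in both fits. With the sex inferred from Xist and Y-linked transcripts as a covariate 3 passed as higher, and in the 5 libraries with Y-linked transcripts alone 0 did, with 1 lower in each.

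**Figure D1:**
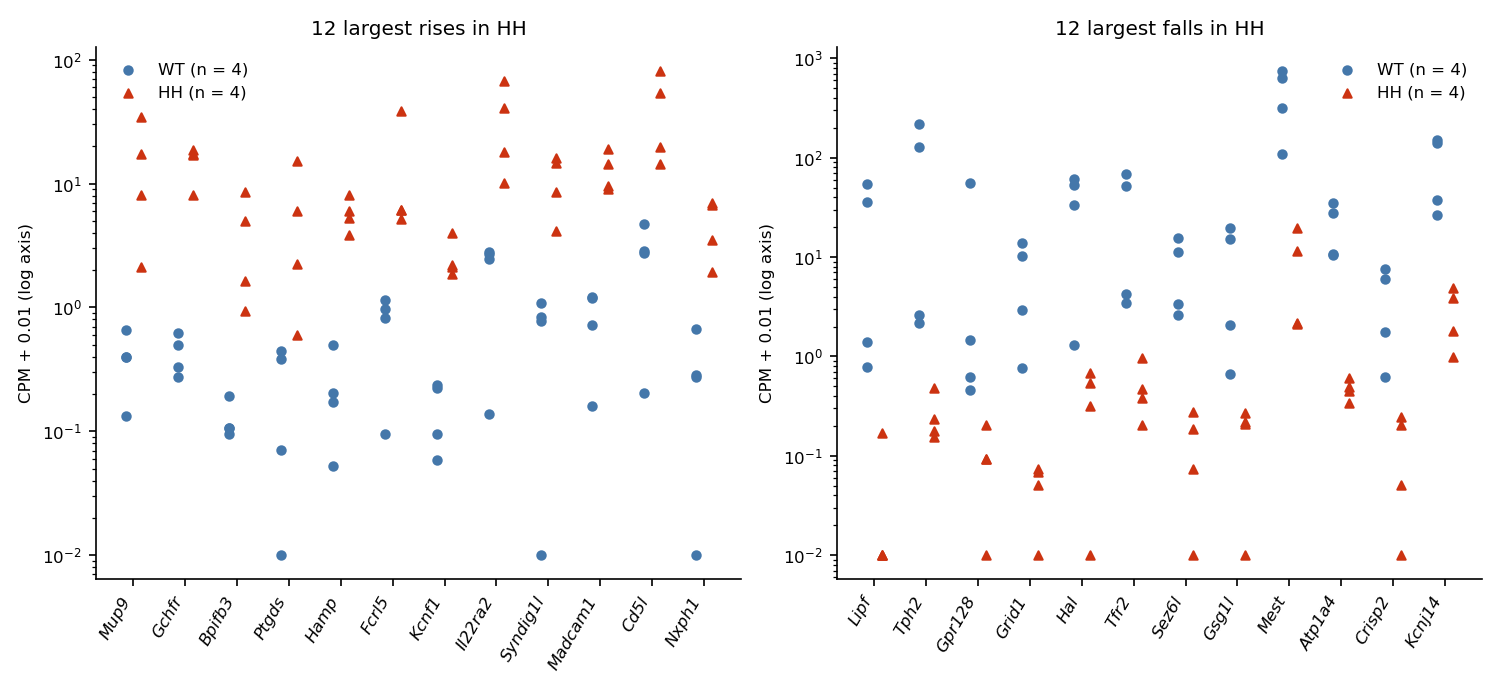
CPM plus 0.01 on a log axis for the 12 genes with the largest rises (left) and the 12 with the largest falls (right) in HH fat, 1 point per library (circles WT, triangles HH, n = 4 each). The groups do not overlap for any of the 24 genes, a condition of their choice, and for the falls the WT points spread widely, as for Tph2 from 2.18 to 216 CPM.

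The 12 largest rises, taken among non-overlapping genes whose mean reached 1 CPM, started from low levels in WT, none above 4.74 CPM, the value of Cd5l in WT replicate 3. Gchfr, which encodes the feedback regulator of GTP cyclohydrolase in tetrahydrobiopterin synthesis, had the smallest p of all genes. It was at 0.322, 0.612, 0.485 and 0.266 CPM in WT and 16.9, 8.03, 18.8 and 17.4 CPM in HH (log2 fold change 5.18 ± 0.41, adjusted p = 0.00997, 8 of 8 fits). The gene lies at chr2:119167788-119172389 in GRCm38, close to Bub1b at chr2:118598202-118641592 and well inside the 20 Mb window around it. Whether this position bears on its level was not tested. Mup9, a member of the major urinary protein family, was at 0.386, 0.122, 0.647 and 0.387 CPM in WT and 17.4, 34.4, 8.04 and 2.09 CPM in HH (log2 fold change 5.29 ± 0.91, adjusted p = 0.0174, 8 of 8 fits). Reads from such near-identical family members may have been split or dropped in the counting, so the level of Mup9 is uncertain. Bpifb3, of a family of lipid-binding secreted proteins, was at 0.0859, 0.184, 0.0971 and 0.0969 CPM in WT and 8.59, 5.01, 1.62 and 0.933 CPM in HH (log2 fold change 5.12 ± 0.79, adjusted p = 0.0166, 8 of 8 fits). Hamp, which encodes the iron-regulating hormone hepcidin, was at 0.0429, 0.49, 0.162 and 0.194 CPM in WT and 3.86, 5.98, 8.13 and 5.24 CPM in HH (log2 fold change 4.73 ± 0.66, adjusted p = 0.0166, 8 of 8 fits). All 4 HH libraries were above all 4 WT libraries for each of these genes, with a wide spread within HH for Mup9 and a narrower one for Hamp and Gchfr.

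The remaining rises included genes of B cells, of lymphocyte entry and of macrophages. Ptgds, a prostaglandin D synthase, was at 0, 0.0612, 0.372 and 0.436 CPM in WT and 0.594, 15.3, 2.24 and 6.05 CPM in HH (log2 fold change 4.76 ± 1.31, adjusted p = 0.0423, 1 of 8 fits). Fcrl5, an Fc receptor-like gene of B cells, was at 0.0859, 1.13, 0.809 and 0.969 CPM in WT and 5.2, 38.2, 6.05 and 6.11 CPM in HH (log2 fold change 4.22 ± 0.97, adjusted p = 0.0273, 4 of 8 fits), with HH replicate 2 far above the other 3. Madcam1, the addressin through which lymphocytes enter mucosal and lymphoid tissue, was at 0.15, 1.19, 0.712 and 1.19 CPM in WT and 9.62, 14.4, 18.9 and 9.04 CPM in HH (log2 fold change 4.01 ± 0.62, adjusted p = 0.0166, 8 of 8 fits). The 4 HH values of Madcam1 spread little, and no WT value was above 1.19 CPM. Cd5l, a secreted macrophage protein, was at 0.193, 2.72, 4.74 and 2.86 CPM in WT and 54.3, 80.6, 19.8 and 14.5 CPM in HH (log2 fold change 4.0 ± 0.90, adjusted p = 0.026, 4 of 8 fits). Il22ra2, a soluble interleukin receptor, was at 0.129, 2.45, 2.77 and 2.69 CPM in WT and 10.1, 67.4, 40.4 and 18 CPM in HH (log2 fold change 4.08 ± 0.91, adjusted p = 0.0255, 4 of 8 fits). For both genes WT replicate 1 was the lowest library. The other genes of this group were the potassium channel subunit Kcnf1 (log2 fold change 4.10, 8 of 8), Syndig1l (4.03, 4 of 8) and Nxph1 (3.95, 4 of 8), and the latter 2 are genes known from the nervous system.

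Among the 12 largest falls, HH libraries were near 0 for most genes, and WT replicates 1 and 2 were often far above WT replicates 3 and 4. Lipf, which encodes gastric lipase, was at 36, 54.5, 1.39 and 0.775 CPM in WT and 0.158, 0, 0 and 0 CPM in HH (log2 fold change -8.82 ± 1.88, adjusted p = 0.0226, 4 of 8 fits). Tph2, the tryptophan hydroxylase of serotonin neurons, was at 128, 216, 2.61 and 2.18 CPM in WT and 0.475, 0.145, 0.166 and 0.225 CPM in HH (log2 fold change -8.35 ± 1.77, adjusted p = 0.0221, 6 of 8 fits). Tfr2, a transferrin receptor, was at 51.7, 69.1, 3.45 and 4.19 CPM in WT and 0.455, 0.372, 0.954 and 0.193 CPM in HH (log2 fold change -6.05 ± 1.18, adjusted p = 0.0195, 6 of 8 fits). The 2 high WT libraries of these genes carried Y-linked transcripts and the 2 lower ones Xist. The 2 lower ones also had higher epithelial marker sums, 2625 and 2598 CPM against 10.4 and 12.7 CPM. Their fat cell marker sums were lower, 25065 and 26472 CPM against 48008 and 48836 CPM. The spread within WT therefore cannot be told apart from a difference between the sexes or in these markers. With the Xist-defined sex as a covariate, all 3 genes still passed the test, at log2 fold changes of -9.43 for Lipf, -8.38 for Tph2 and -6.14 for Tfr2. Gpr128, an adhesion receptor gene, was high in 1 WT library alone, at 56, 1.47, 0.453 and 0.605 CPM in WT and 0, 0.0827, 0.0829 and 0.193 CPM in HH (log2 fold change -7.40 ± 2.03, adjusted p = 0.0426, 1 of 8 fits). Hal, the histidine-degrading lyase, was at 60.5, 52.5, 33.2 and 1.31 CPM in WT and 0.534, 0.31, 0.663 and 0 CPM in HH (log2 fold change -6.61 ± 1.27, adjusted p = 0.0193, 6 of 8 fits).

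The other falls included an imprinted gene and genes of ion transport and of a receptor. Mest, an imprinted gene whose expression marks fat expansion in mice, lies at chr6:30733506-30748466 and was at 638, 740.2, 314 and 108 CPM in WT and 11.6, 2.13, 2.16 and 19.4 CPM in HH (log2 fold change -5.67 ± 0.99, adjusted p = 0.0174, 8 of 8 fits). Atp1a4, a sodium pump subunit known from sperm, lies at chr1:172223508-172258424 and was at 27.4, 34.6, 10.7 and 10.5 CPM in WT and 0.594, 0.434, 0.332 and 0.482 CPM in HH (log2 fold change -5.47 ± 0.51, adjusted p = 0.0116, 8 of 8 fits). The highest HH value of Atp1a4, 0.594 CPM, was far below its lowest WT value, 10.5 CPM. The potassium channel gene Kcnj14 was at 141, 152, 26.4 and 37.7 CPM in WT and 3.9, 0.972, 1.78 and 4.86 CPM in HH (log2 fold change -4.95 ± 0.79, adjusted p = 0.0166, 8 of 8 fits). The delta-type glutamate receptor gene Grid1 was at 10.1, 13.7, 0.761 and 2.95 CPM in WT and 0.0594, 0.0414, 0 and 0.0643 CPM in HH (log2 fold change -7.20 ± 1.10, adjusted p = 0.0166, 8 of 8 fits). Sez6l (-5.86, 8 of 8), Gsg1l (-5.75, 5 of 8) and Crisp2 (-4.98, 5 of 8) had log2 fold changes in the same range.

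The genes with the smallest p, besides Gchfr and Atp1a4, changed less but with little spread in either group. Col16a1, a fibril-associated collagen, lies at chr4:130047817-130099277 and was at 106, 85.1, 147 and 93.7 CPM in WT and 21.7, 26.1, 24.7 and 22.8 CPM in HH (log2 fold change -2.18 ± 0.18, adjusted p = 0.00997, 8 of 8 fits). Slc2a3, the glucose transporter GLUT3, was at 8.35, 9.64, 13.6 and 12.7 CPM in WT and 53.1, 45, 42 and 42.1 CPM in HH (log2 fold change 2.04 ± 0.18, adjusted p = 0.0116, 8 of 8 fits). Sorbs2, an actin-associated adaptor, was at 44.8, 41.4, 48.3 and 37 CPM in WT and 13.9, 13.8, 9.54 and 15.3 CPM in HH (log2 fold change -1.71 ± 0.17, adjusted p = 0.0116, 8 of 8 fits). Sorbs2 was at 37 CPM or more in every WT library and at 15.3 CPM or less in every HH library. The gap junction connexin Gja1 was at 80.7, 78.7, 66.4 and 85 CPM in WT and 31.3, 39, 31.1 and 32.1 CPM in HH (log2 fold change -1.22 ± 0.12, adjusted p = 0.0116, 8 of 8 fits). Within HH, the 4 values of Col16a1 lay between 21.7 and 26.1 CPM and those of Slc2a3 between 42.0 and 53.1 CPM, far from any WT value.

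Lymphocyte genes were higher in HH fat as a group. All 15 B cell markers had every HH library above every WT library, against 15.8% of all genes. Of them 10 (66.7%) passed the test as higher, against 10.4% of all genes, with a median log2 fold change of 2.77. Of 19 T cell markers, 15 (78.9%) rose and none fell, with a median of 1.84 and every HH library above every WT library for 16. The summed B cell markers were 32.9, 762, 571 and 369 CPM in WT and 2084, 2932, 4140.1 and 2097 CPM in HH, and the summed T cell markers 202, 555, 557 and 616 CPM in WT and 1009, 1743, 2216 and 1202 CPM in HH. WT replicate 1 stood apart as nearly free of B cell transcripts, while the other 3 WT libraries were still below every HH library. Cd79a, a B cell receptor subunit, was at 4.17, 114, 84 and 51.3 CPM in WT and 308, 434, 683 and 296 CPM in HH (log2 fold change 2.77 ± 0.81, adjusted p = 0.0499, 1 of 8 fits). Ms4a1, which encodes CD20, was at 1.37, 75.1, 44.7 and 24.1 CPM in WT and 138, 174, 196 and 167 CPM in HH (log2 fold change 2.22 ± 0.86, adjusted p = 0.101). The groups did not overlap for either gene, and WT replicate 1 was the lowest library for each. The inhibitory B cell receptor Cd22 was at 4.85, 72.2, 52.2 and 39.1 CPM in WT and 254, 355, 514 and 221 CPM in HH (log2 fold change 3.0 ± 0.70, adjusted p = 0.0288, 5 of 8 fits). The complement receptor Cr2 was at 0.73, 33.2, 31.4 and 17.2 CPM in WT and 126, 229, 221 and 176 CPM in HH (log2 fold change 3.19 ± 0.87, adjusted p = 0.042, 2 of 8 fits). Pou2af1 (log2 fold change 2.93, 3 of 8) and Bank1 (2.39, 5 of 8), further B cell genes, rose too. Without HH replicate 2, HH replicate 3 or WT replicate 4 none of the 15 B cell markers passed, and without WT replicate 1 all 15 did. With sex as a covariate 1 passed, and with Y-linked libraries alone 0. The lowest and highest medians over the 8 leave-one-out fits were 2.36 and 3.17.

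Among T cell genes, the helper cell coreceptor Cd4 was at 9.13, 30.4, 30.3 and 28.6 CPM in WT and 100.0, 192, 183 and 92 CPM in HH (log2 fold change 2.53 ± 0.43, adjusted p = 0.0172, 8 of 8 fits). Foxp3, the transcription factor of regulatory T cells, was at 2.06, 4.71, 5.6 and 3.58 CPM in WT and 12.4, 21.4, 19.9 and 9.55 CPM in HH (log2 fold change 1.99 ± 0.38, adjusted p = 0.0193, 6 of 8 fits). The T cell receptor chain Cd3e was at 4.19, 12.9, 13.5 and 14.1 CPM in WT and 27, 48, 63.5 and 37.8 CPM in HH (log2 fold change 1.98 ± 0.41, adjusted p = 0.0214, 5 of 8 fits). Cd3d, at 6.06, 25.4, 23.1 and 27.4 CPM in WT and 30.2, 46.4, 67.3 and 37.7 CPM in HH, did not pass (log2 fold change 1.15 ± 0.45, adjusted p = 0.105). Each of these genes was lowest in WT replicate 1 and highest in HH replicate 2 or 3. Zap70, a T cell receptor kinase, had a log2 fold change of 1.74 (6 of 8), Cd6 of 1.99 (7 of 8) and Cd5 of 1.95 (6 of 8). Of the 19 T cell markers, 1 passed without HH replicate 2 and 2 without HH replicate 3, and 11 passed with sex as a covariate and 7 with Y-linked libraries alone.

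Genes of lymph node stroma and venules were also measured, because a white fat depot can hold a lymph node. Of 12 tested, 4 rose and none fell (33.3% called, against 16.8% of all genes), with a median log2 fold change of 1.55. Cxcl13, the chemokine that draws B cells into follicles, was at 1.59, 42, 39.3 and 12.7 CPM in WT and 243, 230.2, 210.0 and 179 CPM in HH (log2 fold change 3.17 ± 0.81, adjusted p = 0.0363, 2 of 8 fits). Ccl19, a chemokine of the T cell zone, was at 5.6, 48.6, 63.2 and 26.7 CPM in WT and 126, 207, 285 and 125 CPM in HH (log2 fold change 2.37 ± 0.65, adjusted p = 0.0428, 3 of 8 fits). Clu, a secreted chaperone also made by follicular dendritic cells, was at 54.8, 158, 374 and 262 CPM in WT and 504, 1006, 1125 and 575 CPM in HH (log2 fold change 1.92 ± 0.56, adjusted p = 0.0484, 2 of 8 fits). The venule mucin Glycam1, at 0.859, 19.7, 155 and 231 CPM in WT and 127, 146, 163 and 481 CPM in HH, overlapped between the groups (log2 fold change 1.18 ± 1.2, adjusted p = 0.493). Glycam1 is also a milk protein gene, and its highest library in each group was also 1 of the 4 with high epithelial markers. The summed list was 1066, 1303, 1094 and 1071 CPM in WT and 1683, 2321, 2469.8 and 1974 CPM in HH, and Madcam1, described above, was its member with the largest change. In WT replicate 1 no member named here was above 54.8 CPM, so other members set most of that sum. Of the 12 tested, 1 had every HH library below every WT library, without passing the test, and the lowest log2 fold change was -1.95. Under the sex covariate 1 member passed as higher and 1 as lower, and with Y-linked libraries alone 3 and 2. In bulk tissue RNA more cells of a type and more RNA per cell cannot be told apart, here and for every cell type below.

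MHC class II and dendritic cell genes rose along with them, 8 of 15 with none lower (53.3% called, against 16.8% of all genes). Their median was 1.17. Ciita, the master regulator of MHC class II genes, was at 25.1, 54.6, 43.2 and 40.8 CPM in WT and 115, 213, 251 and 130.1 CPM in HH (log2 fold change 2.12 ± 0.32, adjusted p = 0.0166, 8 of 8 fits). Cd74, the invariant chain, was at 953, 1208, 1152 and 1163 CPM in WT and 1738, 3063, 3576 and 1764 CPM in HH (log2 fold change 1.18 ± 0.30, adjusted p = 0.0347, 3 of 8 fits). H2-Ab1, at 467, 552, 598 and 549 CPM in WT and 793, 1189.6, 1475 and 667 CPM in HH, just missed the threshold (log2 fold change 0.93 ± 0.27, adjusted p = 0.0504), as did H2-Aa (0.76 ± 0.24, adjusted p = 0.0603). Flt3, the growth factor receptor of dendritic cells, was at 3.09, 8.48, 9.63 and 9.32 CPM in WT and 23.4, 33, 41.2 and 25.3 CPM in HH (log2 fold change 2.01 ± 0.37, adjusted p = 0.0185, 6 of 8 fits). Siglech, of plasmacytoid dendritic cells, had a log2 fold change of 2.59 (4 of 8), H2-DMa of 1.21 (4 of 8) and Clec9a of 1.17 (4 of 8). Only 1 member of the list passed without HH replicate 2, and 1 without HH replicate 3. In the fit with sex as a covariate 4 passed, and with Y-linked libraries alone 6.

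**Figure D2:**
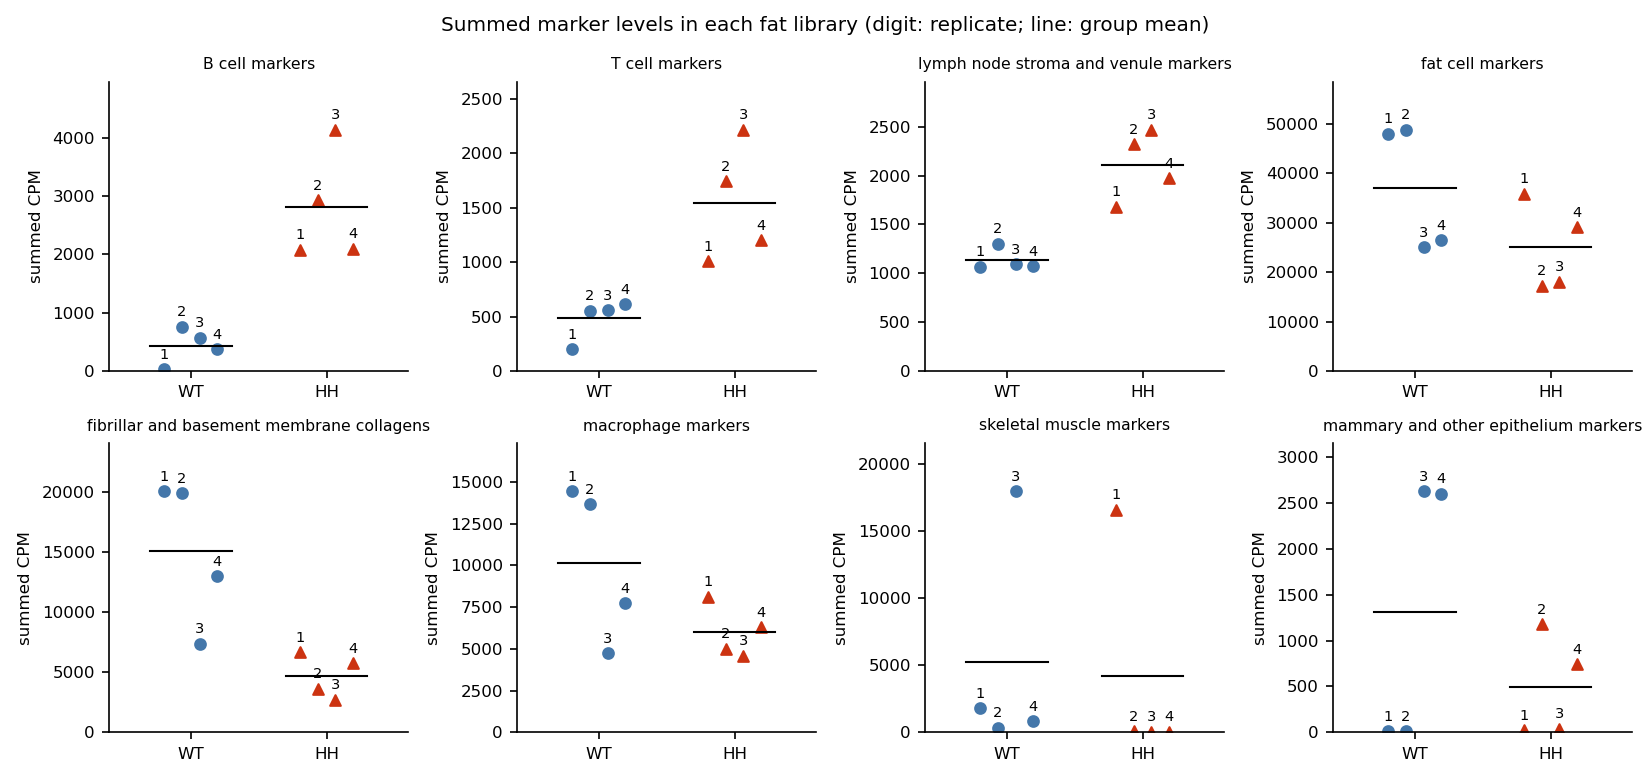
Summed CPM of 8 gene lists in each library, 1 panel per list, with circles for WT, triangles for HH, digits for the replicate and a line for the group mean (n = 4). B cell, T cell and lymph node sums are higher in every HH library, and collagens are lower in every HH library. Fat cell and macrophage sums overlap, and muscle and epithelium sums are set by 1 or 2 libraries in each group. The macrophage list holds Lpl, also a fatty acid uptake gene, which alone gave 12734 of 14444 CPM in WT replicate 1. In HH replicate 2 it gave 2205 of 5018 CPM, so this panel largely follows Lpl.

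The lymphocyte markers moved with genotype so closely that the fit could not separate them. The mean log2 CPM of the B and T cell markers was 1.92, 4.85, 4.70 and 4.48 in the WT libraries and 5.99, 6.65, 7.04 and 6.15 in the HH libraries. With this mean as a covariate, no gene passed in edgeR, and 1027 of 15834 had an unadjusted p under 0.05, against 5867 without it. As the covariate does not overlap between the groups, a change with genotype and a change with lymphocyte content cannot be told apart in these libraries. The B and T cell lists are drawn towards 0 by construction, as the covariate is the mean of their own members. The median of the B cell list went from 2.77 to -0.33 and that of the T cell list from 1.84 to 0.28. The replication list went from 1.01 to 0.48, the spindle checkpoint list from 1.21 to 0.83 and the collagens from -1.62 to -1.02. Of single genes, Gchfr had a log2 fold change of 4.78, Mup9 of 5.19, Slc2a3 of 1.72, Mest of -4.76, Atp1a4 of -5.03, Col16a1 of -2.26 and Pttg1 of -2.30. Each of these kept its direction and differed by less than 1 log2 unit from the value without the covariate. Other named changed genes reversed their direction, among them Cd79a, Cr2 and Ccl19, as listed in the closing section. The changes of Gpr128, at -0.02, and Syndig1l, at -0.09, were near 0.

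**Figure D3:**
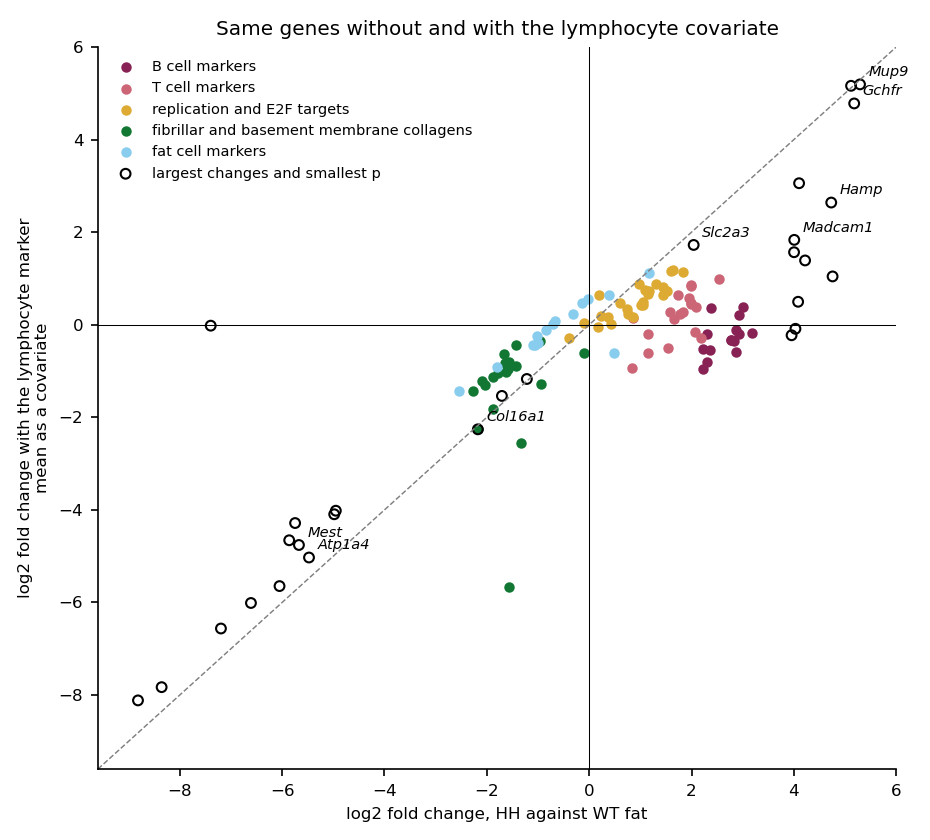
Log2 fold change of HH against WT (x axis) against the same with the mean lymphocyte marker level as a covariate (y axis), 1 point per gene, coloured by list, open circles for the largest changes and smallest p, and a dashed line where both values are equal. The B and T cell markers move towards 0 on the y axis by construction, since the covariate is their mean. Gchfr, Mup9, Atp1a4, Mest and Col16a1 keep their direction, and no gene passed the test with the covariate.

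Genes of DNA replication were higher in HH fat, 17 of 25 list members with none lower (68% called, against 16.8% of all genes). Their median log2 fold change was 1.01. Cdt1, which loads the replicative helicase, was at 5.3, 7.07, 8.51 and 6.88 CPM in WT and 17.1, 27.3, 35.5 and 18.6 CPM in HH (log2 fold change 1.83 ± 0.27, adjusted p = 0.0166, 8 of 8 fits). The helicase subunit Mcm3 was at 24.6, 34, 29.9 and 26 CPM in WT and 45.8, 76.3, 87.6 and 73.4 CPM in HH (log2 fold change 1.31 ± 0.21, adjusted p = 0.0166, 8 of 8 fits). Mcm2 was at 11.6, 23.2, 16.6 and 18.7 CPM in WT and 30.1, 51.4, 59.8 and 47.9 CPM in HH (log2 fold change 1.44 ± 0.27, adjusted p = 0.0188, 6 of 8 fits). No WT library reached an HH library for any of these 3 genes. Mcm5 was at 14.8, 32.2, 20.7 and 19.9 CPM in WT and 35.9, 70.0, 78.3 and 65.8 CPM in HH (log2 fold change 1.52 ± 0.30, adjusted p = 0.0198, 5 of 8 fits). Mcm4 (log2 fold change 1.06, 6 of 8) and the polymerase subunit Pole (1.09, 6 of 8) rose as well, whereas the sliding clamp Pcna, at 83, 114, 89 and 79.6 CPM in WT and 97.3, 119.7, 117 and 138 CPM in HH, did not pass (0.37 ± 0.16, adjusted p = 0.126). For Cdt1, Mcm2, Mcm3 and Mcm5 every HH library was above every WT library, and HH replicate 1 was the lowest of the HH libraries. Without HH replicate 2 or HH replicate 3, 2 members passed. The sex covariate left 13, and with Y-linked libraries alone 4 passed as higher and 1 as lower.

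Mitotic genes followed a similar order of libraries. Of 22 tested, 9 rose and none fell (40.9% called, against 16.8% of all genes), with a median of 1.17. Mki67, the proliferation marker, was at 34, 58.3, 38 and 29.6 CPM in WT and 59.1, 172, 147 and 155 CPM in HH (log2 fold change 1.74 ± 0.35, adjusted p = 0.0201, 4 of 8 fits). The cell cycle transcription factor Mybl2 was at 2.75, 4.71, 3.16 and 2.66 CPM in WT and 5.78, 14.9, 13.2 and 10.6 CPM in HH (log2 fold change 1.75 ± 0.34, adjusted p = 0.0195, 6 of 8 fits). The topoisomerase Top2a was at 17.2, 37.1, 22.2 and 23 CPM in WT and 36.4, 78.8, 70.7 and 85.9 CPM in HH (log2 fold change 1.45 ± 0.32, adjusted p = 0.0239, 4 of 8 fits), where HH replicate 1 fell just below WT replicate 2. The mitotic kinase Cdk1, at 11.1, 15.5, 8.56 and 6.78 CPM in WT and 8.51, 15.6, 16.8 and 14.9 CPM in HH, did not pass (log2 fold change 0.42 ± 0.31, adjusted p = 0.341). The kinetochore gene Ndc80 had a log2 fold change of 1.14 (4 of 8) and the kinesin Kif11 of 1.46 (2 of 8). HH replicate 1, which held the fewest T cell transcripts of the HH group, was also its lowest library for the summed mitotic genes, at 218 CPM against 489 to 513 CPM in the other 3. HH replicate 4 was close to it in B cell markers, at 2097 against 2084 CPM, and in T cell markers, at 1202 against 1009 CPM. Its mitotic sum was 495 CPM. HH replicate 1 was the lowest HH library for the B cell, T cell and mitotic sums alike, and it held the most skeletal muscle transcripts of the group. B and T cell marker sums and mitotic sums were both higher in the HH libraries, and the part of lymphocytes in the mitotic and replication changes was not tested beyond the covariate fit, in which no gene passed. None of the 22 passed without HH replicate 2 or without HH replicate 3. With sex as a covariate 4 passed as higher, and with Y-linked libraries alone 0 were higher and 1 lower.

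E2F transcription factors are known to drive many replication genes from promoter elements close to the words TTTCCCGC, TTTCGCGC, TTTGCCGC and TTTGGCGC. RefSeq promoter windows of GRCm38.p6 were searched for these 4 words of 8 bases on both strands in the 250 bases before the gene start. A word was present in 7 of the 21 replication genes matched by symbol (33.3%), against 421 of 11719 tested genes with a promoter entry (3.6%) and 611 of 32851 windows in the table (1.9%). The list was named for E2F targets, so this share is not independent of how it was chosen. The stretches that hold the word are given below, 5′ to 3′ in the direction of transcription with the word in capitals, for the 5 genes that rose and the 2 that did not pass.
Mcm5 (chr8:75109330-75109389, + strand): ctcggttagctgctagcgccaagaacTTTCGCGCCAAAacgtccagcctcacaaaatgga
Mcm7 (chr5:138172015-138172074, - strand): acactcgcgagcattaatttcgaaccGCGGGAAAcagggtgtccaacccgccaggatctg
Cdc6 (chr11:98907987-98908046, + strand): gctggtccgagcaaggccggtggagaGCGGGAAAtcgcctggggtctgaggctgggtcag
Uhrf1 (chr17:56304102-56304161, + strand): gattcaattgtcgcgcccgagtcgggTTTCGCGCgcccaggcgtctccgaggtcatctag
Dnmt1 (chr9:20952809-20952868, - strand): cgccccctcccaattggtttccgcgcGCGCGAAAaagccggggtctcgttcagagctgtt
Mcm6 (chr1:128359782-128359841, - strand): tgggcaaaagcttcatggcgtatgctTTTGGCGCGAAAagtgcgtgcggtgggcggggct
Rfc3 (chr5:151651209-151651244, - strand): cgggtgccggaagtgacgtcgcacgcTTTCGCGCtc
In Mcm7, Cdc6 and Dnmt1 the word reads on the other strand, and in Mcm5 and Mcm6 a word on each strand overlaps the other. Of these genes, Mcm5 is described above and the others are named because they hold the word. Mcm7 was at 34.4, 41.9, 50.7 and 43.5 CPM in WT and 55.7, 74.5, 77.5 and 76.3 CPM in HH (log2 fold change 0.74 ± 0.16, adjusted p = 0.0225, 3 of 8 fits). The helicase loader Cdc6 was at 3.82, 5.45, 3.46 and 4.12 CPM in WT and 8.15, 7.1, 7.34 and 10.4 CPM in HH (log2 fold change 0.97 ± 0.23, adjusted p = 0.0291, 3 of 8 fits). Uhrf1 was at 10.8, 17.8, 9.55 and 10.1 CPM in WT and 17, 43.1, 44.7 and 41.7 CPM in HH (log2 fold change 1.61 ± 0.34, adjusted p = 0.0222, 4 of 8 fits). Uhrf1 encodes the factor that brings Dnmt1 to replicated DNA, and its level in HH replicate 1 fell within the WT range. The maintenance DNA methyltransferase Dnmt1 was at 44.1, 53.3, 65.9 and 68 CPM in WT and 74.1, 144, 136 and 109.6 CPM in HH (log2 fold change 1.01 ± 0.23, adjusted p = 0.0275, 4 of 8 fits). Mcm6, at 23, 27.9, 28.8 and 43.8 CPM in WT and 20.4, 65.4, 76.5 and 61.7 CPM in HH, and the clamp loader subunit Rfc3, at 9.81, 13.2, 11.2 and 10.5 CPM in WT and 10.2, 14.5, 19.6 and 15.3 CPM in HH, did not pass (log2 fold change 0.86 ± 0.38, adjusted p = 0.139 and log2 fold change 0.42 ± 0.22, adjusted p = 0.195). In Mcm6 HH replicate 1 was below every WT library. A match to these letters is a description and not a measured binding site.

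CDK inhibitors and factors secreted by senescent cells had no common direction, with 5 of 29 higher, 6 lower and a median log2 fold change of 0.02. The called share was 37.9%, against 16.8% of all genes. Cdkn2a, which encodes p16 and ARF, lies at chr4:89274473-89294619 and was at 0.966, 1.84, 1.72 and 1.02 CPM in WT and 2.49, 9.39, 6.51 and 2.28 CPM in HH (log2 fold change 1.90 ± 0.52, adjusted p = 0.0427, 2 of 8 fits). All 4 HH libraries were above all 4 WT libraries, but replicates 1 and 4 only slightly so, and with sex as a covariate the gene no longer passed, at a log2 fold change of 1.66 and an adjusted p of 0.0904. Cdkn1a, which encodes the p53-induced inhibitor p21, went the other way, at 141, 158, 119 and 94.9 CPM in WT and 41, 62.9, 44 and 61.5 CPM in HH (log2 fold change -1.29 ± 0.21, adjusted p = 0.0166, 8 of 8 fits). Cdkn2b, the neighbour of Cdkn2a that encodes p15, was at 21, 27.6, 4.56 and 7.85 CPM in WT and 8.15, 6.81, 7.17 and 6.05 CPM in HH and did not pass (log2 fold change -1.11 ± 0.51, adjusted p = 0.152). Of the secreted factors, the chemokine Ccl8 was at 47.1, 80.5, 76.4 and 47.9 CPM in WT and 303, 302, 295 and 127 CPM in HH (log2 fold change 2.03 ± 0.32, adjusted p = 0.0166, 8 of 8 fits). The macrophage elastase Mmp12 was at 143, 43.9, 74.9 and 44.7 CPM in WT and 10.5, 9.08, 2.36 and 4.79 CPM in HH (log2 fold change -3.51 ± 0.57, adjusted p = 0.0166, 8 of 8 fits). Each of these genes was without overlap, in opposite directions. The collagenase Mmp13 was at 1.2, 0.857, 1.21 and 1.67 CPM in WT and 0.297, 0.207, 0.0829 and 0.0643 CPM in HH (log2 fold change -2.84 ± 0.52, adjusted p = 0.0185, 6 of 8 fits). The binding protein Igfbp5 was at 937, 855, 996 and 1343 CPM in WT and 553, 406, 255 and 333 CPM in HH (log2 fold change -1.42 ± 0.27, adjusted p = 0.0194, 6 of 8 fits). Mmp13 and Igfbp5 were likewise lower in every HH library.

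Targets of p53 were likewise mixed, with 3 of 21 higher and 2 lower (23.8% called, against 16.8% of all genes). Their median was -0.27. Trp53 itself was at 49.1, 58.5, 58.1 and 54.7 CPM in WT and 59.7, 94.8, 106 and 69.6 CPM in HH and did not pass (log2 fold change 0.58 ± 0.19, adjusted p = 0.0626), nor did its inhibitor Mdm2 (0.13 ± 0.10, adjusted p = 0.373) or Ccng1 (-0.44 ± 0.23, adjusted p = 0.191). The pro-apoptotic gene Pmaip1 was at 2.13, 4.19, 4.76 and 5.18 CPM in WT and 10.4, 23.7, 17.5 and 8.97 CPM in HH (log2 fold change 1.90 ± 0.40, adjusted p = 0.0215, 5 of 8 fits). The sestrin genes, which encode stress-induced inhibitors of the growth kinase mTORC1, went in opposite directions. Sesn1 was at 48.1, 51.1, 65.5 and 62.5 CPM in WT and 95, 83.3, 94.4 and 89.3 CPM in HH (log2 fold change 0.67 ± 0.12, adjusted p = 0.0185, 5 of 8 fits). Sesn2 was at 68, 59.4, 38.5 and 26.9 CPM in WT and 17.4, 16.2, 16.5 and 17.2 CPM in HH (log2 fold change -1.52 ± 0.27, adjusted p = 0.0182, 6 of 8 fits). The 4 HH values of Sesn2 lay between 16.2 and 17.4 CPM. Trp53inp1 rose (0.93, 3 of 8) and Ei24 fell (-0.46, 4 of 8) on the log2 scale. No member passed without HH replicate 2 or without HH replicate 3.

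Of 15 fat cell markers tested Tusc5 passed as lower and Cfd as higher (13.3% called, against 16.8% of all genes), with a median log2 fold change of -0.71. Their sums, 48008, 48836, 25065 and 26472 CPM in WT and 35913, 17251, 18076 and 29049 CPM in HH, overlapped. Within WT replicates 1 and 2 were high, and within HH replicates 2 and 3 were low. Leptin, encoded by Lep, spread widely in both groups, at 5718, 6575, 1486 and 1459.6 CPM in WT and 1269, 98.9, 148 and 1098 CPM in HH, and although no HH library reached a WT library the difference did not pass (log2 fold change -2.55 ± 0.95, adjusted p = 0.0931). Adiponectin, encoded by Adipoq, was at 3726, 3957, 1578 and 2432 CPM in WT and 2148, 878, 959 and 1836 CPM in HH (log2 fold change -1.01 ± 0.41, adjusted p = 0.117). The fat cell transcription factor gene Pparg was at 286, 272, 123 and 199.7 CPM in WT and 186, 91, 98.9 and 134 CPM in HH (log2 fold change -0.79 ± 0.32, adjusted p = 0.11). Both were lower in HH replicates 2 and 3 than in any other library. Cfd, which encodes the complement factor adipsin secreted by fat cells, rose instead, at 2599.5, 2345, 3072 and 4237 CPM in WT and 9559, 6823, 5854 and 5471 CPM in HH (log2 fold change 1.18 ± 0.31, adjusted p = 0.0387, 0 of 8 fits). Cfd was higher in every HH library than in any WT library. Of 20 adipokines and fat cell transcription factors, Cfd rose and Apln and Itih5 fell (15% called, against 16.8% of all genes), with a median of -0.38. Apln, which encodes the peptide hormone apelin, was at 41.9, 31.4, 8.45 and 14.9 CPM in WT and 1.96, 3.31, 2.45 and 3.54 CPM in HH (log2 fold change -3.10 ± 0.51, adjusted p = 0.0166, 8 of 8 fits). Itih5 was at 982, 909, 534 and 554 CPM in WT and 349, 125, 127 and 367 CPM in HH (log2 fold change -1.62 ± 0.44, adjusted p = 0.0405, 3 of 8 fits).

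Insulin signalling genes had 3 of 19 members lower and none higher (15.8% called, against 16.8% of all genes), with a median of -0.57. The insulin receptor Insr (log2 fold change -0.19 ± 0.17, adjusted p = 0.434), the glucose transporter Slc2a4 (-0.14 ± 0.32, adjusted p = 0.779) and the adaptor Irs1 (-0.57 ± 0.35, adjusted p = 0.256) did not pass. The other adaptor, Irs2, fell with a narrow spread, at 54.9, 52.5, 59.5 and 42.6 CPM in WT and 28.9, 29, 24.1 and 23.3 CPM in HH (log2 fold change -0.99 ± 0.14, adjusted p = 0.0166, 8 of 8 fits). The caveolar gene Ptrf was at 2147, 2013, 1252 and 1118 CPM in WT and 830.3, 333, 381 and 830.1 CPM in HH (log2 fold change -1.46 ± 0.39, adjusted p = 0.0404, 3 of 8 fits). Tusc5, which encodes a partner of the insulin-responsive glucose transporter, was at 971, 871, 435 and 349 CPM in WT and 294, 78.6, 122 and 258 CPM in HH (log2 fold change -1.80 ± 0.50, adjusted p = 0.044, 2 of 8 fits). All 3 were without overlap, and of them only Irs2 passed in each leave-one-out fit.

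Of 21 genes of lipid droplets and lipolysis, 4 fell and 1 rose (23.8% called, against 16.8% of all genes), with a median of -0.71. The droplet coat gene Plin1 was at 2054, 1969, 1064 and 1356 CPM in WT and 1038, 372, 491 and 1104 CPM in HH (log2 fold change -1.10 ± 0.41, adjusted p = 0.0917). The lipases Pnpla2 (log2 fold change -0.03 ± 0.31, adjusted p = 0.957) and Lipe (-0.71 ± 0.38, adjusted p = 0.204) did not pass. G0s2, which encodes an inhibitor of the Pnpla2 lipase, was at 729, 908, 518 and 333 CPM in WT and 277, 189, 131 and 202 CPM in HH (log2 fold change -1.64 ± 0.35, adjusted p = 0.0222, 4 of 8 fits). The coat gene Plin2 was at 833, 924, 399 and 301 CPM in WT and 239, 149, 167 and 276 CPM in HH (log2 fold change -1.56 ± 0.40, adjusted p = 0.0362, 3 of 8 fits). Both were below every WT library in all HH libraries. Plin5 (-1.37, 2 of 8) and Plin3 (-0.69, 2 of 8) fell on the log2 scale but overlapped between the groups.

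Fatty acid synthesis genes had 1 of 21 members higher and none lower (4.8% called, against 16.8% of all genes), with a median of -0.02. Fasn, the fatty acid synthase, ranged widely within both groups, at 2123, 2051, 406 and 4742 CPM in WT and 2743, 1329, 4266 and 6192 CPM in HH (log2 fold change 0.64 ± 0.70, adjusted p = 0.524). Acaca (log2 fold change 0.91 ± 0.60, adjusted p = 0.289) and Acly (0.61 ± 0.46, adjusted p = 0.352) did not pass either. Acacb, the acetyl-CoA carboxylase whose malonyl-CoA restrains mitochondrial fatty acid oxidation, was at 59.8, 50.7, 76.8 and 56.6 CPM in WT and 308, 214, 204 and 163 CPM in HH (log2 fold change 1.87 ± 0.22, adjusted p = 0.0154, 8 of 8 fits). Every HH library held at least 163 CPM of Acacb and no WT library more than 76.8 CPM. Triglyceride assembly had 1 of 16 members lower (6.2%, against 6.36% of all genes), with a median of -0.34. That gene was Mogat2, an acyltransferase, at 32.9, 35.6, 2.83 and 9.32 CPM in WT and 1.96, 0.455, 0.871 and 2.61 CPM in HH (log2 fold change -3.77 ± 0.88, adjusted p = 0.0288, 4 of 8 fits). Dgat2 was at 4267, 4698, 928 and 1725 CPM in WT and 1015, 352, 484 and 1342 CPM in HH (log2 fold change -1.86 ± 0.62, adjusted p = 0.0695). Dgat1 (log2 fold change -0.09 ± 0.22, adjusted p = 0.79) and Gpam (-0.21 ± 0.36, adjusted p = 0.69) did not pass.

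Few genes of fatty acid uptake and oxidation passed the test. Of 17 uptake and binding genes only Angptl4 passed, a share near the 6.36% of all genes that were lower, with a list median of -0.83, and Angptl4, an inhibitor of lipoprotein lipase, was at 1324, 1179, 717 and 436 CPM in WT and 502, 175, 205 and 296 CPM in HH (log2 fold change -1.64 ± 0.45, adjusted p = 0.0418, 3 of 8 fits). The lipase Lpl (log2 fold change -1.05 ± 0.53, adjusted p = 0.177), the fatty acid transporter Cd36 (-1.35 ± 0.48, adjusted p = 0.0807) and the binding protein Fabp4 (-1.05 ± 0.47, adjusted p = 0.143) did not pass. All 25 oxidation genes tested had negative fold changes, 4 of them past the test, a called share near the 16.8% of all genes, with a median of -0.67. Cpt1a, which carries long-chain fatty acids into mitochondria, was at 185, 178, 151 and 105 CPM in WT and 79.3, 101, 73.5 and 81.2 CPM in HH (log2 fold change -0.88 ± 0.19, adjusted p = 0.0239, 4 of 8 fits). Etfdh (-0.98, 2 of 8), Acadl (-0.81, 2 of 8) and Acaa1b (-1.59, 3 of 8) also fell on the log2 scale, and Acadm (log2 fold change -0.89 ± 0.38, adjusted p = 0.13), Acadvl (-0.36 ± 0.19, adjusted p = 0.205) and Hadha (-0.39 ± 0.16, adjusted p = 0.111) did not pass. The 28 subunits of oxidative phosphorylation were all negative as well, none past the edgeR test or at an unadjusted p under 0.05, and DESeq2 called none. Their log2 fold changes ran from -0.62 to -0.03, with a median of -0.31. Examples are Ndufs1 (log2 fold change -0.29 ± 0.22, adjusted p = 0.362), Sdha (-0.16 ± 0.21, adjusted p = 0.61) and Cox4i1 (-0.32 ± 0.21, adjusted p = 0.291).

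Thermogenic and beige fat genes had 4 of 20 members lower and 2 higher (30% called, against 16.8% of all genes). Their median was -0.68. Ucp1, the uncoupling protein of brown fat, was low and uneven, at 8.52, 11.1, 47.2 and 8.6 CPM in WT and 1.19, 0.724, 1.04 and 11.2 CPM in HH (log2 fold change -2.42 ± 1.03, adjusted p = 0.127). The coactivator Ppargc1a did not pass (log2 fold change -0.48 ± 0.35, adjusted p = 0.333). Prdm16, a transcriptional regulator of beige fat, was at 35.9, 27.3, 19.2 and 18.8 CPM in WT and 12.6, 8.58, 10.9 and 11.5 CPM in HH (log2 fold change -1.21 ± 0.24, adjusted p = 0.0197, 6 of 8 fits). Fgf21, which encodes a metabolic hormone, was at 2.86, 6.09, 3.19 and 1.07 CPM in WT and 0.257, 0.0414, 0.29 and 0.193 CPM in HH (log2 fold change -4.08 ± 0.71, adjusted p = 0.0174, 8 of 8 fits). Neither gene overlapped between the groups. The potassium channel gene Kcnk3 was at 80.0, 73.5, 25.3 and 37.4 CPM in WT and 17.6, 10.4, 18.1 and 21.7 CPM in HH (log2 fold change -1.67 ± 0.39, adjusted p = 0.0291, 4 of 8 fits). The proton channel gene Otop1 was at 25.6, 34.5, 14.5 and 17.7 CPM in WT and 3.86, 0.765, 0.995 and 6.98 CPM in HH (log2 fold change -2.87 ± 0.71, adjusted p = 0.0332, 3 of 8 fits). The beige marker Tmem26 rose, at 0.837, 2.23, 2.35 and 1.77 CPM in WT and 4.57, 12.3, 10.0 and 3.76 CPM in HH (log2 fold change 2.09 ± 0.49, adjusted p = 0.0288, 3 of 8 fits). With sex as a covariate 5 members passed as lower and none as higher.

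Cholesterol synthesis had 2 of 23 members lower and none higher (8.7% called, against 16.8% of all genes), with a median of -0.43. Hmgcs1, an early synthase of the pathway, was at 651, 758, 267 and 181 CPM in WT and 66.2, 54.3, 68.3 and 76.5 CPM in HH (log2 fold change -2.81 ± 0.46, adjusted p = 0.0166, 7 of 8 fits). The desaturase Sc5d was at 130.4, 127, 65.5 and 132 CPM in WT and 30.8, 19.2, 26.5 and 41.1 CPM in HH (log2 fold change -1.95 ± 0.29, adjusted p = 0.0166, 8 of 8 fits). Both were below every WT library in all HH libraries, whereas the epoxidase gene Sqle (log2 fold change -0.67 ± 0.26, adjusted p = 0.0996) did not pass. Over the leave-one-out fits, 1 to 7 members passed as lower.

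**Figure D4:**
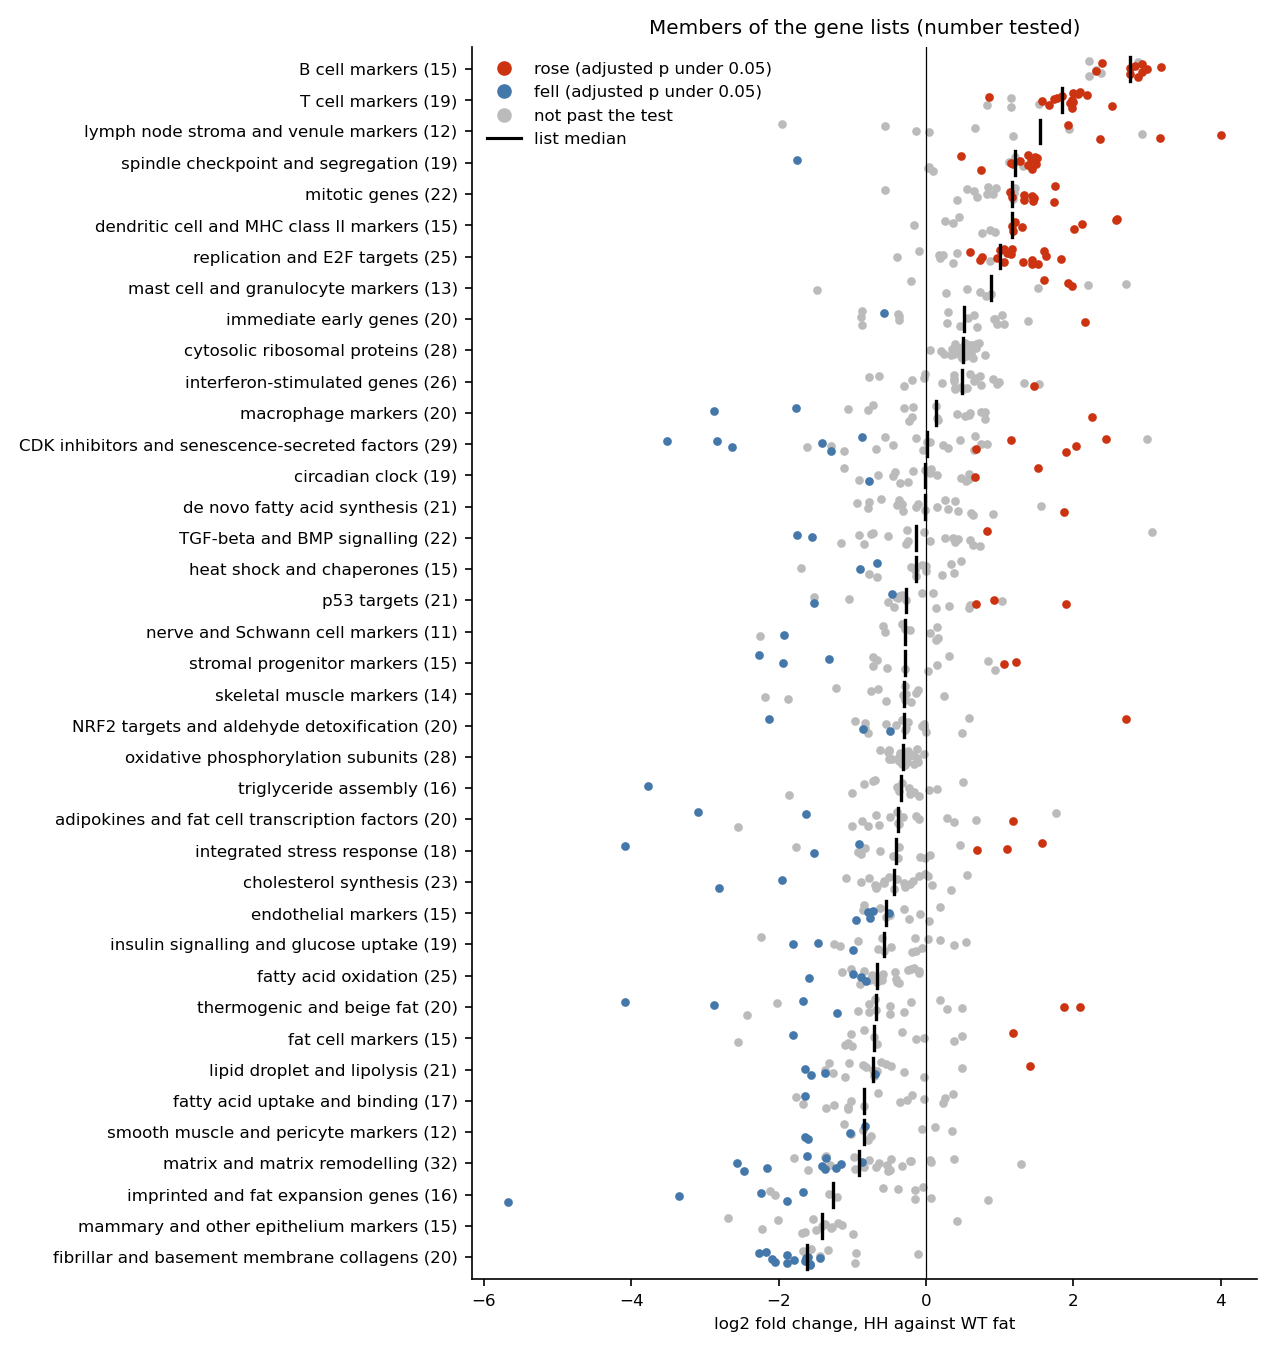
Log2 fold change of HH against WT fat (x axis) for the tested members of 39 gene lists (rows, number tested in brackets), red where the gene rose, blue where it fell, grey where it did not pass, with a bar at the list median. Lymphocyte, lymph node, checkpoint, mitotic, dendritic cell and replication lists lie to the right, and collagen, epithelium, imprinted and matrix lists to the left, where the epithelial median of -1.41 turns to 4.34 with sex as a covariate and to 6.10 with Y-linked libraries alone.

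Genes linked to fat expansion, many of them imprinted, had 5 of 16 members lower and none higher (31.2% called, against 16.8% of all genes). Their median log2 fold change was -1.26. Mest is described above. Peg3, a paternally expressed zinc finger gene, was at 112, 82.7, 199.6 and 75.6 CPM in WT and 36.1, 37.8, 14.6 and 38.4 CPM in HH (log2 fold change -1.89 ± 0.40, adjusted p = 0.0218, 6 of 8 fits). Sfrp5, a secreted Wnt antagonist of fat cells, was at 514, 342, 259.6 and 103 CPM in WT and 47, 6.04, 8.67 and 57.4 CPM in HH (log2 fold change -3.35 ± 0.83, adjusted p = 0.0333, 4 of 8 fits). Bmp3 was at 134, 130.5, 104 and 64.9 CPM in WT and 35, 8.81, 6.76 and 41.5 CPM in HH (log2 fold change -2.23 ± 0.60, adjusted p = 0.0397, 2 of 8 fits). In Mest, Sfrp5 and Bmp3 HH replicates 2 and 3 were the lowest libraries and HH replicates 1 and 4 lay between them and WT. Dlk1, an imprinted inhibitor of fat cell formation, was low in all libraries, at 0.988, 1.29, 1.38 and 2.23 CPM in WT and 3.44, 1.32, 2.03 and 3.76 CPM in HH (log2 fold change 0.85 ± 0.41, adjusted p = 0.171). Kcnk3 belongs to this list as well, and it and Sfrp5 and Bmp3 are not imprinted genes. Without HH replicate 2, or HH replicate 3, 1 member passed.

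Collagens were lower in HH fat as a list. All 20 had negative fold changes and 13 passed the test (65% called, against 16.8% of all genes). Their median log2 fold change was -1.62. Their sum was 20091, 19924, 7379 and 13005 CPM in WT and 6701, 3653, 2731 and 5763 CPM in HH. The fibrillar collagen Col1a1 was at 1469.7, 1279, 519 and 1053 CPM in WT and 515, 336, 193 and 413 CPM in HH (log2 fold change -1.57 ± 0.39, adjusted p = 0.0346, 2 of 8 fits). Col3a1 was at 4025, 4228, 1450.2 and 3271 CPM in WT and 1556, 788, 619 and 1383 CPM in HH (log2 fold change -1.58 ± 0.43, adjusted p = 0.0419, 2 of 8 fits). Both encode fibres that give tissue its tensile strength. Of the basement membrane collagens, Col4a1 was at 3469, 3563, 1250.1 and 1726 CPM in WT and 1065, 515, 354 and 774 CPM in HH (log2 fold change -1.89 ± 0.47, adjusted p = 0.0332, 2 of 8 fits). Col4a2 was at 2624, 2785, 851 and 1153 CPM in WT and 657, 359, 253 and 528 CPM in HH (log2 fold change -2.04 ± 0.47, adjusted p = 0.028, 4 of 8 fits). In these genes WT replicate 3 was the lowest WT library and HH replicate 1 the highest HH library, and they overlapped in Col3a1. Col8a1 was more even, at 22.2, 15.6, 25.6 and 24.1 CPM in WT and 4.99, 5.87, 5.81 and 7.04 CPM in HH (log2 fold change -1.88 ± 0.20, adjusted p = 0.0119, 8 of 8 fits). Col5a3 (-2.09, 4 of 8) and Col5a2 (-1.79, 3 of 8) fell as well on the log2 scale. WT replicate 3 and HH replicate 1 are also the libraries with the most skeletal muscle transcripts, and without both of them 15 collagens passed as lower. Without HH replicate 2 or HH replicate 3, 2 passed. The sex covariate left 9 as lower, and with Y-linked libraries alone 15.

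Other matrix genes had 10 of 32 members lower and none higher (31.2% called, against 16.8% of all genes), with a median of -0.91. Sparc, a collagen-binding matrix protein, was at 10928, 12315, 2562 and 3329 CPM in WT and 2185, 676, 690.5 and 1739 CPM in HH (log2 fold change -2.46 ± 0.66, adjusted p = 0.0405, 2 of 8 fits). Fbn1, the microfibril protein fibrillin, was at 215, 253, 119 and 262 CPM in WT and 79.5, 92, 67 and 88.6 CPM in HH (log2 fold change -1.37 ± 0.25, adjusted p = 0.0183, 6 of 8 fits). The matrix protease Adamts1 was at 116, 166, 97.1 and 88.9 CPM in WT and 40.0, 55.3, 36.1 and 50.9 CPM in HH (log2 fold change -1.36 ± 0.23, adjusted p = 0.0167, 8 of 8 fits). The groups did not overlap for these 3 genes, and of them Sparc varied most within WT. Thbs1, which encodes a thrombospondin, was at 138, 86, 438 and 232 CPM in WT and 12.7, 73.1, 23 and 41.4 CPM in HH (log2 fold change -2.57 ± 0.66, adjusted p = 0.0361, 2 of 8 fits). Mfap4 (-2.16, 5 of 8) and Fbln2 (-1.40, 3 of 8) fell on the log2 scale, and fibronectin, encoded by Fn1 (log2 fold change -0.52 ± 0.27, adjusted p = 0.193), and the cross-linking enzyme Lox (-1.59 ± 0.54, adjusted p = 0.071) did not pass. Without HH replicate 2 or HH replicate 3, 1 member passed.

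The TGF-beta and BMP list had 2 of 22 members lower and 1 higher (13.6% called, against 16.8% of all genes), with a median of -0.13. The ligand Tgfb1 (log2 fold change 0.74 ± 0.25, adjusted p = 0.069), the receptor Tgfbr2 (0.64 ± 0.21, adjusted p = 0.0653) and the mediator Smad3 (-0.27 ± 0.13, adjusted p = 0.167) did not pass. The BMP receptor Bmpr1a was at 145, 156, 102 and 113 CPM in WT and 57.7, 44.4, 24.3 and 49.8 CPM in HH (log2 fold change -1.55 ± 0.26, adjusted p = 0.0172, 7 of 8 fits). The activin subunit Inhbb was at 107, 78.2, 133 and 145 CPM in WT and 35, 38.6, 17.7 and 46.1 CPM in HH (log2 fold change -1.75 ± 0.30, adjusted p = 0.0174, 7 of 8 fits). The BMP target Id1 rose, at 40.4, 32.9, 43.9 and 27.7 CPM in WT and 52.7, 80.5, 74.6 and 48.8 CPM in HH (log2 fold change 0.83 ± 0.21, adjusted p = 0.0368, 3 of 8 fits). The receptor and the ligand subunit were thus lower and this target higher, each without overlap.

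Macrophage markers showed no common direction, with 1 of 20 higher, 2 lower (15% called, against 16.8% of all genes) and a median of 0.14. The general markers Emr1, which encodes F4/80 (log2 fold change -0.22 ± 0.33, adjusted p = 0.641), Cd68 (0.16 ± 0.27, adjusted p = 0.686) and Csf1r (0.80 ± 0.30, adjusted p = 0.0922) did not pass. Lyve1, a marker of a resident vessel-associated subset and of lymphatic vessels, was at 13.6, 24.8, 16.6 and 23.5 CPM in WT and 90.5, 153, 77.2 and 53.7 CPM in HH (log2 fold change 2.26 ± 0.34, adjusted p = 0.0166, 8 of 8 fits). Trem2, a marker of lipid-associated macrophages, was at 53.4, 51.7, 24 and 15.5 CPM in WT and 10.3, 3.43, 2.99 and 2.86 CPM in HH (log2 fold change -2.88 ± 0.57, adjusted p = 0.0198, 6 of 8 fits). Gpnmb, another gene of that subset, was at 194, 87.5, 109 and 67.3 CPM in WT and 49.9, 35.6, 24.8 and 24 CPM in HH (log2 fold change -1.77 ± 0.37, adjusted p = 0.0214, 6 of 8 fits). Lyve1 was higher and Trem2 and Gpnmb lower in every HH library, together with Mmp12 above. Of 13 mast cell and granulocyte markers 3 rose and none fell (23.1% called, against 16.8% of all genes), with a median of 0.88. They were the granulocyte receptor Csf3r (1.93, 3 of 8), the IgE receptor chain Fcer1a (1.98, 1 of 8) and Prg2 (1.6, 2 of 8), while Cpa3 (log2 fold change 0.82 ± 0.37, adjusted p = 0.143), Mcpt4 (0.88 ± 0.40, adjusted p = 0.151) and S100a8 (0.27 ± 0.74, adjusted p = 0.815) did not pass.

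Endothelial markers had 5 of 15 members lower and none higher (33.3% called, against 16.8% of all genes), with a median of -0.55. Cdh5, the endothelial cadherin, was at 419, 337, 210.2 and 233 CPM in WT and 160.2, 170.3, 133 and 156 CPM in HH (log2 fold change -0.95 ± 0.23, adjusted p = 0.0323, 3 of 8 fits). The angiopoietin receptor Tek was at 83.1, 67.1, 55.6 and 68.7 CPM in WT and 51.5, 35.8, 39 and 36.3 CPM in HH (log2 fold change -0.75 ± 0.16, adjusted p = 0.0239, 3 of 8 fits). Emcn (-0.50, 3 of 8), Robo4 (-0.78, 1 of 8) and Esam (-0.72, 0 of 8) fell on the log2 scale, whereas Pecam1 (log2 fold change 0.04 ± 0.17, adjusted p = 0.882) and Kdr (-0.22 ± 0.20, adjusted p = 0.427) did not pass. Of 12 smooth muscle and pericyte markers 4 fell (33.3% called, against 16.8% of all genes), with a median of -0.84. The signalling receptor Notch3 was at 132, 116, 129 and 149 CPM in WT and 60.3, 97.9, 67.9 and 70.6 CPM in HH (log2 fold change -0.82 ± 0.16, adjusted p = 0.0198, 8 of 8 fits). The pericyte gene Rgs5 was at 123, 138, 47.9 and 86.7 CPM in WT and 35.8, 27.6, 19 and 44 CPM in HH (log2 fold change -1.64 ± 0.36, adjusted p = 0.0244, 4 of 8 fits). Smtn (-1.04, 8 of 8) and the actin gene Acta2 (-1.6, 2 of 8) fell, and Myh11 did not pass (log2 fold change -0.79 ± 0.44, adjusted p = 0.219). No member of either list passed as higher.

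Stromal progenitor markers had 3 of 15 members lower and 2 higher (33.3% called, against 16.8% of all genes), with a median of -0.28. Pdgfra, common to the progenitors, was at 86.8, 73.7, 97 and 144 CPM in WT and 113, 125, 80.2 and 89.9 CPM in HH (log2 fold change 0.03 ± 0.23, adjusted p = 0.945). Dpp4 (log2 fold change 0.93 ± 0.29, adjusted p = 0.0562) and Pi16 (-0.28 ± 0.56, adjusted p = 0.736) did not pass. Icam1 was at 35, 38.3, 59.3 and 51.4 CPM in WT and 80.7, 133, 139.9 and 73.8 CPM in HH (log2 fold change 1.22 ± 0.27, adjusted p = 0.0239, 3 of 8 fits). Cd55 was at 68.7, 100.4, 66.3 and 75.6 CPM in WT and 159.6, 184, 198 and 104 CPM in HH (log2 fold change 1.06 ± 0.23, adjusted p = 0.0227, 4 of 8 fits), and both are also expressed by lymphocytes. F3, the tissue factor gene, was at 95.9, 53.6, 114 and 109 CPM in WT and 34.4, 42.4, 29.3 and 43.5 CPM in HH (log2 fold change -1.31 ± 0.24, adjusted p = 0.0188, 6 of 8 fits), Sema3c had a log2 fold change of -1.94 (2 of 8), and Col15a1, a collagen list member as well, of -2.27 (3 of 8). Of 11 nerve and Schwann cell markers S100b alone fell (log2 fold change -1.92 ± 0.47, adjusted p = 0.0317, 4 of 8 fits), with a list median of -0.28. The called share of that list was 9.1%, against 16.8% of all genes. The glial transcription factor gene Sox10 did not pass (log2 fold change -2.26 ± 1.22, adjusted p = 0.206). S100b is expressed by fat cells too.

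No skeletal muscle marker (0 of 14, median -0.30), epithelial marker (0 of 15, median -1.41) or tested red blood cell gene (0 of 2) passed in edgeR. At an unadjusted p under 0.05 there were 1, 0 and 1 of them, and DESeq2 called 1 muscle gene lower. The muscle list rested on single libraries: 12 of its 14 members passed as lower without HH replicate 1, and all 14 without WT replicate 3 and HH replicate 1. With sex as a covariate the median turned to 0.91 for muscle and 4.34 for epithelium, and with Y-linked libraries alone to 2.31 and 6.10, with no member past the test. Ckm was at 109, 18.3, 1474 and 62 CPM in WT and 1440.3, 5.9, 3.57 and 1.64 CPM in HH (log2 fold change -0.20 ± 2.09, adjusted p = 0.953), Acta1 had a log2 fold change of -0.54 and Myh4 of -0.28. Krt8 was at 0.451, 0.306, 501 and 446 CPM in WT and 0.435, 295, 6.05 and 174 CPM in HH (log2 fold change -0.99 ± 2.13, adjusted p = 0.756), with Krt14 at a log2 fold change of -1.68 and Epcam at -1.64. Of the red blood cell genes, Alas2 (log2 fold change -0.32 ± 0.35, adjusted p = 0.528) and Slc4a1 (2.59 ± 1.04, adjusted p = 0.111) were tested.

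Of the stress response lists, the integrated stress response had 3 of 18 members higher and 3 lower (33.3% called, against 16.8% of all genes). Its median was -0.41. Its transcription factors Atf4 (log2 fold change -0.01 ± 0.17, adjusted p = 0.98) and Ddit3 (-0.38 ± 0.23, adjusted p = 0.249) and the target Asns (-0.08 ± 0.26, adjusted p = 0.833) did not pass. The amino acid transporter Slc7a5 was at 5.86, 11.3, 17.4 and 12.4 CPM in WT and 28.3, 48, 41.4 and 21.8 CPM in HH (log2 fold change 1.57 ± 0.36, adjusted p = 0.0277, 4 of 8 fits), and the mitochondrial one-carbon genes Mthfd2 (1.10, 4 of 8) and Shmt2 (0.69, 3 of 8) rose with it, whereas Fgf21 and Sesn2 fell as given above. Heat shock genes had 2 of 15 lower (13.3% called, against 16.8% of all genes), with a median of -0.14. They were Bag3 (log2 fold change -0.67 ± 0.17, adjusted p = 0.0333, 3 of 8 fits) and Hspb1 (-0.90 ± 0.24, adjusted p = 0.0386, 3 of 8 fits), while Hspa1a (-0.67 ± 0.53, adjusted p = 0.373), Hsp90aa1 (-0.14 ± 0.18, adjusted p = 0.587) and Hspa8 (0.22 ± 0.20, adjusted p = 0.442) did not pass. NRF2 targets had 1 of 20 higher and 3 lower (20% called, against 16.8% of all genes), with a median of -0.30. Aldh3a1, an aldehyde dehydrogenase, was at 0.644, 0.643, 0.453 and 0.508 CPM in WT and 2.34, 5.21, 4.73 and 2.41 CPM in HH (log2 fold change 2.71 ± 0.38, adjusted p = 0.0166, 8 of 8 fits). The extracellular superoxide dismutase Sod3 was at 1123, 955, 320.4 and 442 CPM in WT and 244, 87.4, 106 and 213 CPM in HH (log2 fold change -2.13 ± 0.50, adjusted p = 0.0293, 4 of 8 fits), Srxn1 (-0.86, 3 of 8) and Gclm (-0.48, 1 of 8) fell on the log2 scale, and Nqo1 (-0.79 ± 0.30, adjusted p = 0.0983), Hmox1 (0.49 ± 0.37, adjusted p = 0.348) and Gclc (0.01 ± 0.30, adjusted p = 0.991) did not pass.

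Interferon-stimulated genes had 1 of 26 members higher and none lower (3.8% called, against 16.8% of all genes), with a median of 0.49. That gene was Irf7, at 41.3, 25.5, 31.4 and 37.1 CPM in WT and 65, 158, 86.8 and 62.7 CPM in HH (log2 fold change 1.46 ± 0.31, adjusted p = 0.023, 6 of 8 fits), and Ifit1 (0.51 ± 0.44, adjusted p = 0.415) and Isg15 (0.40 ± 0.33, adjusted p = 0.398) did not pass. Immediate early genes had 1 of 20 higher and 1 lower (10% called, against 16.8% of all genes), with a median of 0.52. Fos was at 95.2, 61.9, 282 and 97.5 CPM in WT and 20.8, 486, 326 and 29.5 CPM in HH (log2 fold change 0.69 ± 0.97, adjusted p = 0.628), and Egr1 (0.46 ± 0.78, adjusted p = 0.685) and Jun (-0.86 ± 0.31, adjusted p = 0.0814) did not pass. Egr3 was at 2.98, 6.79, 5.13 and 6.68 CPM in WT and 13.1, 26.2, 39.7 and 17 CPM in HH (log2 fold change 2.16 ± 0.41, adjusted p = 0.019, 6 of 8 fits). Klf6 was at 199, 167, 159 and 166 CPM in WT and 109, 123, 105 and 129 CPM in HH (log2 fold change -0.57 ± 0.12, adjusted p = 0.0238, 5 of 8 fits). Fos was high in WT replicate 3 and HH replicates 2 and 3 and low in the rest, an order that crosses the genotypes. Clock genes had 2 of 19 higher and 1 lower (15.8% called, against 16.8% of all genes), with a median of -0.01. Clock was at 85.7, 91.7, 64.5 and 76.5 CPM in WT and 46.1, 55.2, 39.8 and 45.2 CPM in HH (log2 fold change -0.77 ± 0.14, adjusted p = 0.0189, 8 of 8 fits), Cry1 (0.66, 1 of 8) and Ciart (1.52, 0 of 8) rose on the log2 scale, and Arntl (-0.35 ± 0.41, adjusted p = 0.551), Per1 (-0.24 ± 0.25, adjusted p = 0.502) and Dbp (0.54 ± 0.46, adjusted p = 0.406) did not pass. The 28 cytosolic ribosomal protein genes were all positive. None passed in edgeR, 7 had an unadjusted p under 0.05 and DESeq2 called 6 higher. Their log2 fold changes ran from 0.05 to 0.81, with a median of 0.50. Rpl3 (log2 fold change 0.49 ± 0.26, adjusted p = 0.196), Rps6 (0.63 ± 0.29, adjusted p = 0.145) and Rplp0 (0.48 ± 0.28, adjusted p = 0.228) were lowest in WT replicate 1, at 569, 608 and 714 CPM.

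How far the calls depend on the libraries and on sex was examined in further fits. With the Xist-defined sex as a covariate 1714 genes passed, 978 higher and 736 lower, and 1601 of them were among the 2661. Restricted to the 5 libraries with Y-linked transcripts, 2 of WT and 3 of HH, 3061 passed, 1455 higher and 1606 lower, of which 1621 were among the 2661. Without the 2 libraries highest in skeletal muscle markers 2937 passed. Without the 4 libraries highest in epithelial markers, which leaves WT replicates 1 and 2 against HH replicates 1 and 3, 2 genes passed and 5137 had an unadjusted p under 0.05. The sex-linked check genes did not pass the test, and each group held both kinds of library. Their fold changes were Xist at -1.18, Ddx3y at 0.27 and Kdm5d at 1.32 on the log2 scale, with adjusted p of 0.774, 0.931 and 0.619.

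**Figure D5:**
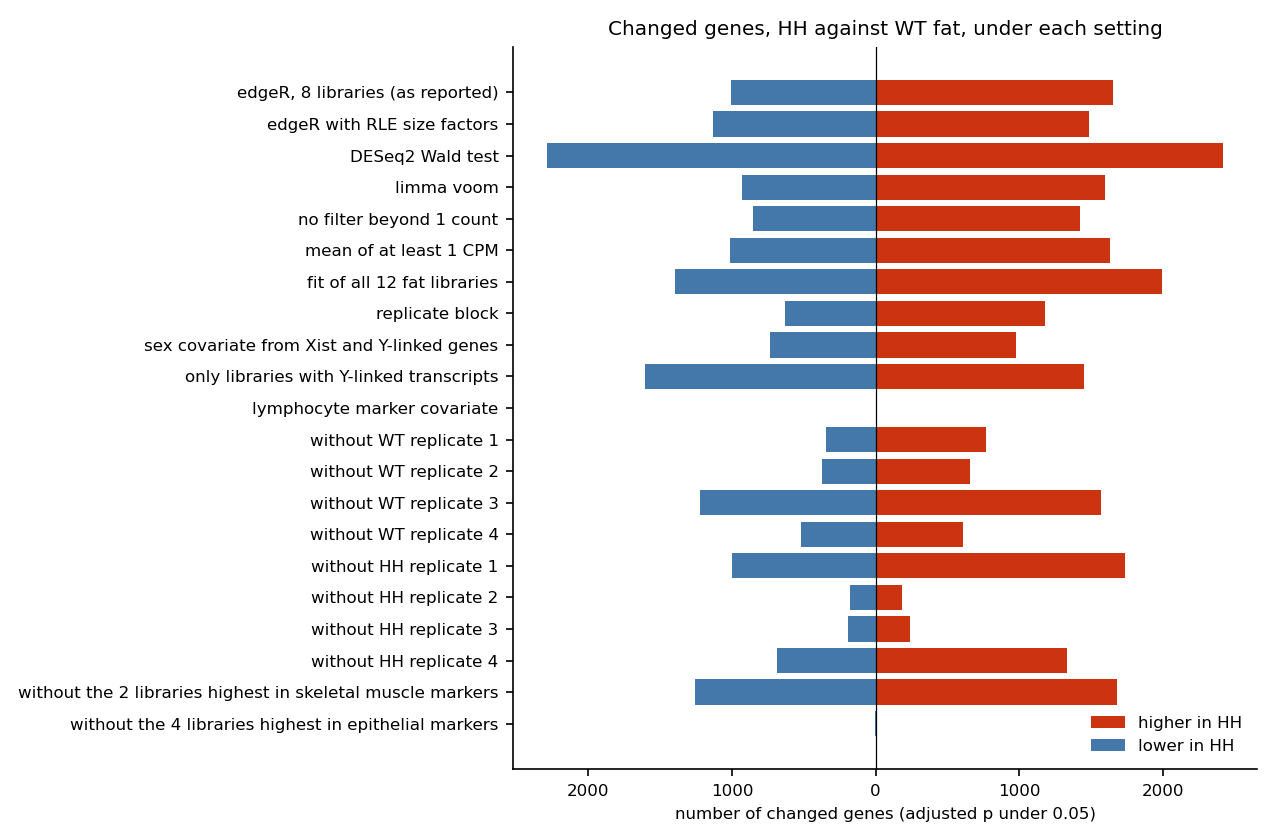
Number of changed genes (x axis, higher in HH to the right and lower to the left) under each setting (rows) at an adjusted p under 0.05. The counts range from 0 with the lymphocyte marker covariate and 2 without the 4 libraries highest in epithelial markers to 4709 with DESeq2, against 2661 as reported.

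HH fat was also set against HL1002P fat, in 1 fit of the 12 fat libraries. No gene of 16266 tested (0%) passed in edgeR, 535 had an unadjusted p under 0.05, and DESeq2 called 20. The smallest p among falls belonged to Pttg1, Slfn8 and Mst1, which share an edgeR adjusted p of 0.0550. Pttg1 was at 27.9, 26.1, 23.0 and 20.7 CPM in HL1002P and 5.63, 9.02, 9.20 and 6.74 CPM in HH (log2 fold change -1.67 ± 0.22). The 4 HH values lay below all 4 HL1002P values. Slfn8, of the Schlafen family of immune cells, was at 31.9, 41.7, 29.6 and 19.3 CPM in HL1002P and 1.80, 4.14, 3.36 and 2.11 CPM in HH (log2 fold change -3.42 ± 0.45). Mst1, which encodes macrophage-stimulating protein, was at 2.06, 2.60, 2.84 and 1.53 CPM in HL1002P and 0.144, 0.0800, 0.0829 and 0.0660 CPM in HH (log2 fold change -4.52 ± 0.61). The WT means, 14.2 CPM for Slfn8 and 0.651 CPM for Mst1, lay between the means of HH and HL1002P. For Pttg1 the WT mean was 26.6 CPM and the HL1002P mean 24.4 CPM. The smallest p among rises belonged to Myrip, Pkdcc and Adcyap1r1, at log2 fold changes of 1.2 ± 0.25, 0.61 ± 0.13 and 1.14 ± 0.24 and an adjusted p of 0.839 for each. Pkdcc was at 26.7, 28.1, 33.0 and 27.6 CPM in HL1002P and 46.9, 42.8, 44.2 and 42.4 CPM in HH, without overlap. A p that misses the threshold does not show that the mutants were alike.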

How the data were processed

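Polyadenylated RNA of fat was sequenced from 4 WT and 4 HH samples, with 4 HL1002P samples used for a second comparison. Raw whole-number counts for 24062 gene symbols were deposited by the authors. The submitters' processing notes name TopHat2 2.0.14, Bowtie2 2.2.6, featureCounts 1.4.6 and the mm10 build. The annotation, the strand setting and the treatment of multi-mapping reads are not given in the sources used here, and the kit in the labels marks no strand. Overlapping genes and near-identical copies are therefore uncertain. Positions came from RefSeq GRCm38.p6, in which 23901 symbols were found, and promoter sequences from RefSeq of the same build.

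From these counts, genes kept by filterByExpr went into edgeR 4.0.16 under R 4.3.3, with TMM scaling and quasi-likelihood F tests on the 8 libraries and 1 coefficient for genotype, with Benjamini-Hochberg adjustment over all 15834 genes, and changed genes had an adjusted p under 0.05. HH and HL1002P were compared in a fit of all 12 fat libraries. The SE of a log2 fold change is its size divided by the square root of F, and mean log2 CPM used a prior count of 2. In 15834 genes simulated from the HH and WT libraries, the test recovered 11% of genes changed by 1 and 57% of those changed by 2 on the log2 scale, with 5 false calls. Each gene was drawn on its own around a mean common to the libraries. The simulated libraries thus lack the shared differences in sex, muscle, epithelial and lymphocyte transcripts. The 5 false calls therefore do not estimate the false calls of the real comparison. Library totals of 22.6 to 58.8 M counts limit precision only at low levels, and as reads carry no molecular identifiers no counting interval is given.

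The comparison, the 41 gene lists (26 of processes, 14 of cell types and 1 sex check) and the tests were chosen with earlier results of these data known. Named genes are Bub1b and Cdkn2a, the 12 largest rises and 12 largest falls among changed genes without overlap whose mean reached 1 CPM, leaving out predicted genes, pseudogenes, antisense and clone names and antigen receptor segments, the 6 smallest p, the first 3 measured members of each list and up to 5 of its changed members with the smallest p. For HH against HL1002P they are the 3 smallest p in each direction. A few genes that these rules pick are not reported here. Symbols missing from the table were 4 (Pc, Fdcsp, Ly6g and Siglecf). Alternatives were RLE size factors, DESeq2 1.42.0, limma 3.58.1 voom, other filters, the 12-library fit, a replicate block, a sex covariate, libraries with Y-linked transcripts alone, a lymphocyte covariate and leaving out each library. Leaving out the libraries high in muscle or in epithelial markers was added after seeing the data. Replicate libraries differed by more than counting error, so none was merged.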

Additional observations from a re-analysis of the deposited data

Results flagged for a closer look

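A library was marked where its gap to the nearest other of the 4 in its group, over the range of the group, passed Dixon's 95% critical value for 4 samples. Of 566 groups tested 39 were marked, where chance marks about 1 in 20.

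Skeletal muscle genes stood out in WT replicate 3 (Ckm 1474 CPM, Acta1 3230.1 CPM, Myh4 3663 CPM and a summed list of 17985 CPM) and in HH replicate 1 (Ckm 1440.3 CPM, Acta1 2618 CPM, Myh4 3342 CPM and a summed list of 16618 CPM). The other WT libraries had list sums of 352 to 1795 CPM and the other HH libraries 46.3 to 90 CPM.

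WT replicate 1 was low in Cd3e (4.19 CPM), Cd4 (9.13 CPM), Il22ra2 (0.129 CPM), Rplp0 (714 CPM) and the summed T cell markers (202 CPM), and high in Gpr128 (56 CPM). WT replicate 2 was high in Bub1 (3.24 CPM), Kif11 (12.1 CPM), Bpifb3 (0.184 CPM), the summed mitotic genes (261 CPM), spindle checkpoint genes (289.9 CPM) and lymph node markers (1303 CPM). WT replicate 3 was high in Fos (282 CPM), Egr1 (310.3 CPM) and Ucp1 (47.2 CPM), and low in Sc5d (65.5 CPM). WT replicate 4 was high in Acaca (660.2 CPM) and the summed fatty acid synthesis genes (25348 CPM).

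HH replicate 1 was low in Bub1 (2.85 CPM) and the summed mitotic genes (218 CPM), and high in Trem2 (10.3 CPM) and Lipf (0.158 CPM, with 0 in the other 3). HH replicate 2 was high in Fcrl5 (38.2 CPM), Gja1 (39 CPM), Ifit1 (26 CPM) and Slc4a1 (4.61 CPM). HH replicate 3 was high in Kcnf1 (3.98 CPM) and low in Peg3 (14.6 CPM). HH replicate 4 was high in Ucp1 (11.2 CPM) and Glycam1 (481 CPM) and low in Ccl8 (127 CPM).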

How the results depend on the processing

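The count of 2661 changed genes stayed within 1.5 times under RLE size factors (2615), voom (2528), no filter (2274), a mean of at least 1 CPM (2647), the fit of all 12 fat libraries (3391), libraries with Y-linked transcripts alone (3061) and without the 2 libraries highest in skeletal muscle markers (2937). It was 4709 with DESeq2, 1714 with the sex covariate, 0 with the lymphocyte marker covariate and 2 without the 4 libraries highest in epithelial markers. Leaving out 1 library gave 365 to 2790, lowest without HH replicate 2. The cause of these differences was not tested. The share of calls higher in HH was 62.2%, and 51.4% with DESeq2, 47.5% with Y-linked libraries alone and 51% without HH replicate 2. With the replicate block 1814 genes passed, 1677 of them among the 2661. The labels do not say that equal numbers pair animals, and deviations of same-numbered libraries correlated at 0.47, -0.41, -0.22 and 0.3, so the numbers were not used to pair. With the lymphocyte covariate, 7 named genes that had passed the test reversed: Syndig1l to -0.088, Nxph1 to -0.23, Cd79a to -0.33, Cr2 to -0.18, Ccl19 to -0.060, Clu to -0.017 and Esam to 0.0081, none past the test. Between HH and HL1002P, DESeq2 called 20 genes and a fit of the 8 libraries alone 1 (Mst1), against 0 in edgeR with 535 at an unadjusted p under 0.05. The replicate block and each of the fits that left out 1 library also gave 0.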
